A study of Mus musculus with 2 samples.

Results

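The Hox genes of the mouse lie in 4 clusters, Hoxa on chromosome 6, Hoxb on chromosome 11, Hoxc on chromosome 15 and Hoxd on chromosome 2, and 38 of them are described here by the DNA methylation of their clusters in blood. The measured units were cytosines of CpG dinucleotides, each read on its own strand. A cytosine was a member when both libraries listed it, with at least 10 reads in each, inside the bounds of a cluster on the build GRCm38. There were 9283 such cytosines, of 3030488 listed in both libraries on the autosomes and X, and 9279 were used after positions of extreme coverage were left out. Hoxa held 2494 of them, Hoxb 2302, Hoxc 1902 and Hoxd 2581.

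Genomic DNA of mouse peripheral blood cells was read by RRBS (reduced representation bisulfite sequencing). DNA is cut by the enzyme MspI at CCGG, and bisulfite turns unmethylated cytosines into bases read as T. It held 1 wild-type library (WT) and 1 library (I-PpoI) from mice that express I-PpoI, a homing endonuclease that cuts DNA at rare sites, specifically in kidney proximal tubular epithelial cells. Blood was therefore not the labelled site of expression, and the labels give no strain, sex, age, promoter of the transgene or number of animals behind a library. With 1 library a group there was no replicate: every test below compares the reads of these libraries, not the conditions, and every interval covers counting error alone. WT had a median of 72 reads over a Hox cytosine, and I-PpoI 68. Reads carry no molecular identifiers in these files and 1 read covers several cytosines, so intervals and p-values are narrower than independent molecules would give.

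Hox genes encode homeodomain transcription factors that give cells their position along the body axis. Genes of the same number in different clusters are paralogues, and their order along the chromosome follows the order in which they act from head to tail, with low numbers anterior and high numbers posterior. The clusters are rich in CpG, and in cells that do not use them they are commonly held silent by Polycomb complexes with little DNA methylation. In blood formation, Hoxa9, Hoxb4 and their neighbours are used by stem and progenitor cells and are switched off as blood cells mature.

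Some CpGs of the clusters had strands that read far apart, and this bears on every level below. Of 4060 CpGs of the clusters listed on both strands in both libraries, 384 (9.46%) differed between their strands by more than 50 percentage points, averaged over the libraries, against 6.13% of all 1235746 such CpGs. In all 384 the same strand was the higher one in both libraries. The higher strand averaged 89.6% in each library, and the lower strand 8.24% in WT and 6.28% in I-PpoI. The higher strand also had fewer reads, a median of 29 in WT against 90 on the lower strand.

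Where sequence was at hand, strand-unlike CpGs lay nearly all in CCGG; whether the Hox ones outside these sequences do was not tested. Sequence covered promoters (RefSeq, GRCm38.p6, 250 bases before to 50 after a start), where 11864 of 24509 CpGs inside CCGG were strand-unlike and 4 of 140373 outside it. In the promoters of Hox members 18 of 29 CpGs inside CCGG were strand-unlike and 0 of 118 outside it. Hoxd10, a posterior gene, has the member promoter with the most CCGG sites, and it is shown for that reason, chosen after its values were seen. Capitals mark each CCGG in the 250 bases before its start, at chr2:74691641-74691890 on the forward strand.
Hoxd10: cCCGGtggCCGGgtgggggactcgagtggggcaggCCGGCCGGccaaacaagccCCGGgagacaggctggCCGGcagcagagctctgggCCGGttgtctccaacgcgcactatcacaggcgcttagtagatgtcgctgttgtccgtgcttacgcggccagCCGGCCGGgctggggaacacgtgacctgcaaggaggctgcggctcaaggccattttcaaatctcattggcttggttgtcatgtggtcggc

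Of its 9 CCGG sites 4 were measured on both strands. At the site 249 bases before the start the forward strand read 100% in both libraries, and the reverse strand 1.98% in WT and 0% in I-PpoI. At the site 161 bases before the start the order was turned, with 10.8% and 9.38% on the forward strand and 90.5% and 100% on the reverse. The forward strand of the site 90 bases before the start read 100% in WT and 60% in I-PpoI, and its reverse strand 25% and 15.6%. At the site 86 bases before it, the forward strand read 11.2% and 12.1%, and the reverse 73.6% and 83.3%. In each library and at each of these sites, 1 strand read high and the other low. The 10 other measured CpGs of this stretch averaged 21.4% in WT against 10.3% in I-PpoI. Their strands differed by 30.6 points at most in WT. In RRBS the ends that MspI leaves are filled in with supplied nucleotides, and whether such bases were trimmed is not given in the sources used here; their part in these readings was not tested.

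**Figure D1:**
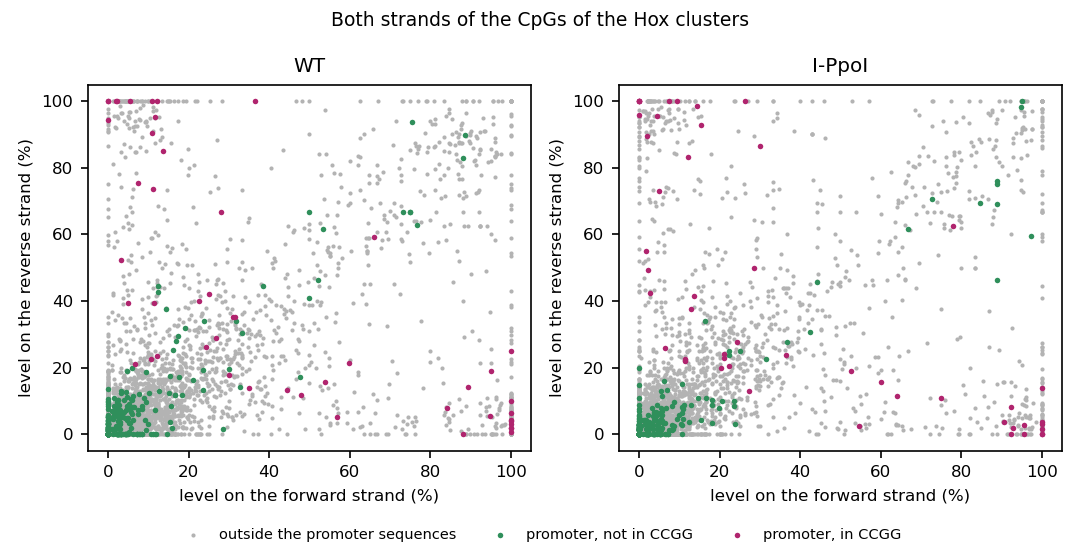
Methylation level (%) on the forward strand (x axis) and the reverse strand (y axis) of each CpG of the Hox clusters listed on both strands, in WT (left) and I-PpoI (right); colours mark CpGs inside promoter sequences by whether they lie in CCGG. The corners where one strand is high and the other low hold the 384 strand-unlike CpGs, and the promoter CpGs among them lie in CCGG.

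Many high readings of the clusters were on 1 strand alone. Of 577 Hox cytosines over 80% in WT with their other strand measured, 192 (33.3%) had that strand over 80% and 268 (46.4%) had it under 20%, against 83.7% and 8.01% for all CpGs. In Hoxc 0 of 76 and in Hoxd 4 of 97 high cytosines had a high partner, while in Hoxa 86 of 200 and in Hoxb 102 of 204 did. Levels are therefore given for all cytosines and again for the 7352 cytosines of CpGs that were listed on both strands and were not strand-unlike, here called like-strand cytosines, a set chosen after the data were seen.

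The promoters of Hoxa5, Hoxd13 and Hoxd4 show where the reads fell at a highly and a weakly methylated gene. Each line gives the 250 bases before the start, for the members with a measured promoter and the highest level in Hoxa (Hoxa5, chr6:52204588-52204837, reverse strand), the lowest in Hoxd (Hoxd13, chr2:74667975-74668224, forward strand) and the highest in Hoxd (Hoxd4, chr2:74721728-74721977, forward strand). The rule also chose Hoxa3, Hoxb4 and Hoxb8, whose promoters held no measured CpG. Capitals mark the CpGs measured in both libraries.
Hoxa5: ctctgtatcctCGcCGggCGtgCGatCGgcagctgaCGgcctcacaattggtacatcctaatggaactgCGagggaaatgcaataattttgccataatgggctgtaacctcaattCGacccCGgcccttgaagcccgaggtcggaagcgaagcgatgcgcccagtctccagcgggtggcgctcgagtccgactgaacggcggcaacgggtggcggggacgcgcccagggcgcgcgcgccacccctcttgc
Hoxd13: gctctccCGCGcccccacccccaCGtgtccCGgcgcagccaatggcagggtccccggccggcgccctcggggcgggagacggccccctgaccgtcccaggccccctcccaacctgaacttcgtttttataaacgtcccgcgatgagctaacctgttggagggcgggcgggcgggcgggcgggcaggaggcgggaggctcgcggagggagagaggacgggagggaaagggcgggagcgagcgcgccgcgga
Hoxd4: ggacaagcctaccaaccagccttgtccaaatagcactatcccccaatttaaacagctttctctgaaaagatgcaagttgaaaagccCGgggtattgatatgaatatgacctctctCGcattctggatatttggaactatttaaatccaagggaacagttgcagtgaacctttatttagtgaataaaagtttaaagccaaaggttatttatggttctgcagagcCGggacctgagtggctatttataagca

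In the Hoxa5 promoter 9 of 28 CpGs were measured, on 17 cytosines, with means of 59.6% for WT and 59.2% for I-PpoI. In the Hoxd13 promoter 4 of 31 CpGs gave 8 cytosines with means of 16.5% and 11.9%, and the highest of these in WT was 89.3%. In the Hoxd4 promoter all 3 CpGs were measured, with means of 43.2% and 44.9% and a range in WT from 13.7% to 85%. Capitals cover a small share of the CpGs of Hoxa5 and Hoxd13. RRBS reads near MspI sites, and why the other CpGs of these stretches were not measured was not tested. The 24 promoters of 22 member genes in the table held a median of 14.5 CpGs in 300 bases, against 7.0 in all 32619 promoters, and 79.2% of them held a CCGG, against 53.1%.

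The clusters were weakly methylated in both libraries, with the lowest means in Hoxc and Hoxd. Hox cytosines had a mean level of 17.5% in WT and 16% in I-PpoI, where all cytosines had 38.6% and 37.1%. In WT, 62.1% of Hox cytosines read under 10% and 7.35% over 80%, against 50.7% and 32.7% of all. Hoxb had the highest mean in WT at 21.9%, followed by Hoxa at 19.5%, Hoxc at 14.4% and Hoxd at 13.8%. By the median in WT the lowest was Hoxa, at 4.20%, against 5.77% in Hoxd, 6.90% in Hoxc and 6.98% in Hoxb. On like-strand cytosines the order of the means was Hoxb 18.6%, Hoxa 16.0%, Hoxd 10.5% and Hoxc 9.99%, so the last pair changed places. The 4 clusters together had 13.9% (WT) and 12.2% (I-PpoI). The share over 80% in WT dropped to 3.73%, and in Hoxc to 0.0682% and in Hoxd to 0.526%.

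The 100 kb on each side of the clusters held far fewer measured cytosines. Hoxa had 21.7 per kb inside and 2.56 per kb in its flanks, and Hoxd 24.6 and 3.30. The Hoxb flanks averaged 51.4% in WT, well above the cluster, and those of Hoxc 26.3% and Hoxa 23.9%. The Hoxd flanks, at 11.6%, were below the 13.8% of their cluster. Inside the clusters, cytosines within 1000 bp of a member's 5′ end averaged 13.4% in WT, those elsewhere inside a member 21.3% and those between members 16.7%.

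I-PpoI was lower than WT in each cluster, and how this compared with the whole data set depended on the weights. With cytosines weighted equally, the mean difference over all Hox cytosines was -1.50 points (counting interval -1.61 to -1.39), and over all cytosines it was -1.49. With reads pooled, it was -2.13 over the Hox cytosines and -6.30 over all. Weighted equally, it was -2.13 (-2.36 to -1.89) in Hoxb, -1.57 (-1.83 to -1.31) in Hoxc, -1.33 (-1.53 to -1.13) in Hoxd and -1.04 (-1.26 to -0.826) in Hoxa. The flanks of all 4 clusters were also lower, by -2.34 points at Hoxa, -1.85 at Hoxb, -2.29 at Hoxc and -2.01 at Hoxd. On like-strand cytosines the cluster differences were -1.25, -2.20, -1.65 and -1.46 for Hoxa to Hoxd in order.

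The small difference was uneven over the range of levels. Cytosines with a mean of both libraries under 20% differed by -1.27 points in the clusters (-0.837 in all), and those from 20% to 80% by -4.00 (-6.03 in all). Above 80% the Hox cytosines were 1.10 points higher in I-PpoI, while all cytosines of that class were lower, at -0.913. In Hoxa 248 cytosines over 80% averaged 90.1% in WT against 93.8% in I-PpoI, with 56.9% higher and 31% lower. The 130 like-strand cytosines of this class in Hoxa averaged 87.4% and 92.8%. In Hoxb the 239 cytosines over 80% differed by -0.831. Reads were also fewer in I-PpoI where levels were high: the median ratio of reads, I-PpoI to WT, was 0.766 in the highest Hoxa class and 0.952 in the lowest, and its part in the difference was not tested.

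Methylated windows were not spread evenly along the clusters. When each cluster was divided into windows of 1000 bp with at least 3 cytosines, 251 windows were measured, and 17 in Hoxa, 21 in Hoxb, 1 in Hoxc and 3 in Hoxd were over 50% in WT. In Hoxa these 17 lay from chr6:52163001 to 52210000, from the 5′ end of Hoxa2 to that of Hoxa6, with only 4 other measured windows among them. The 33 windows beyond, towards Hoxa13, reached 39.0% at most. In Hoxb most lay between Hoxb13 and Hoxb9 or inside the long span that the gene table gives Hoxb3. Others lay inside Hoxb7 and near the 5′ ends of Hoxb5 and Hoxb6. Within 1000 bp of those 5′ ends the pooled level was low, 6.72% at Hoxb5 and 8.04% at Hoxb6 in WT. In Hoxd all 3 lay between chr2:74720001 and 74730000, by Hoxd4 and inside Hoxd3.

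**Figure D2:**
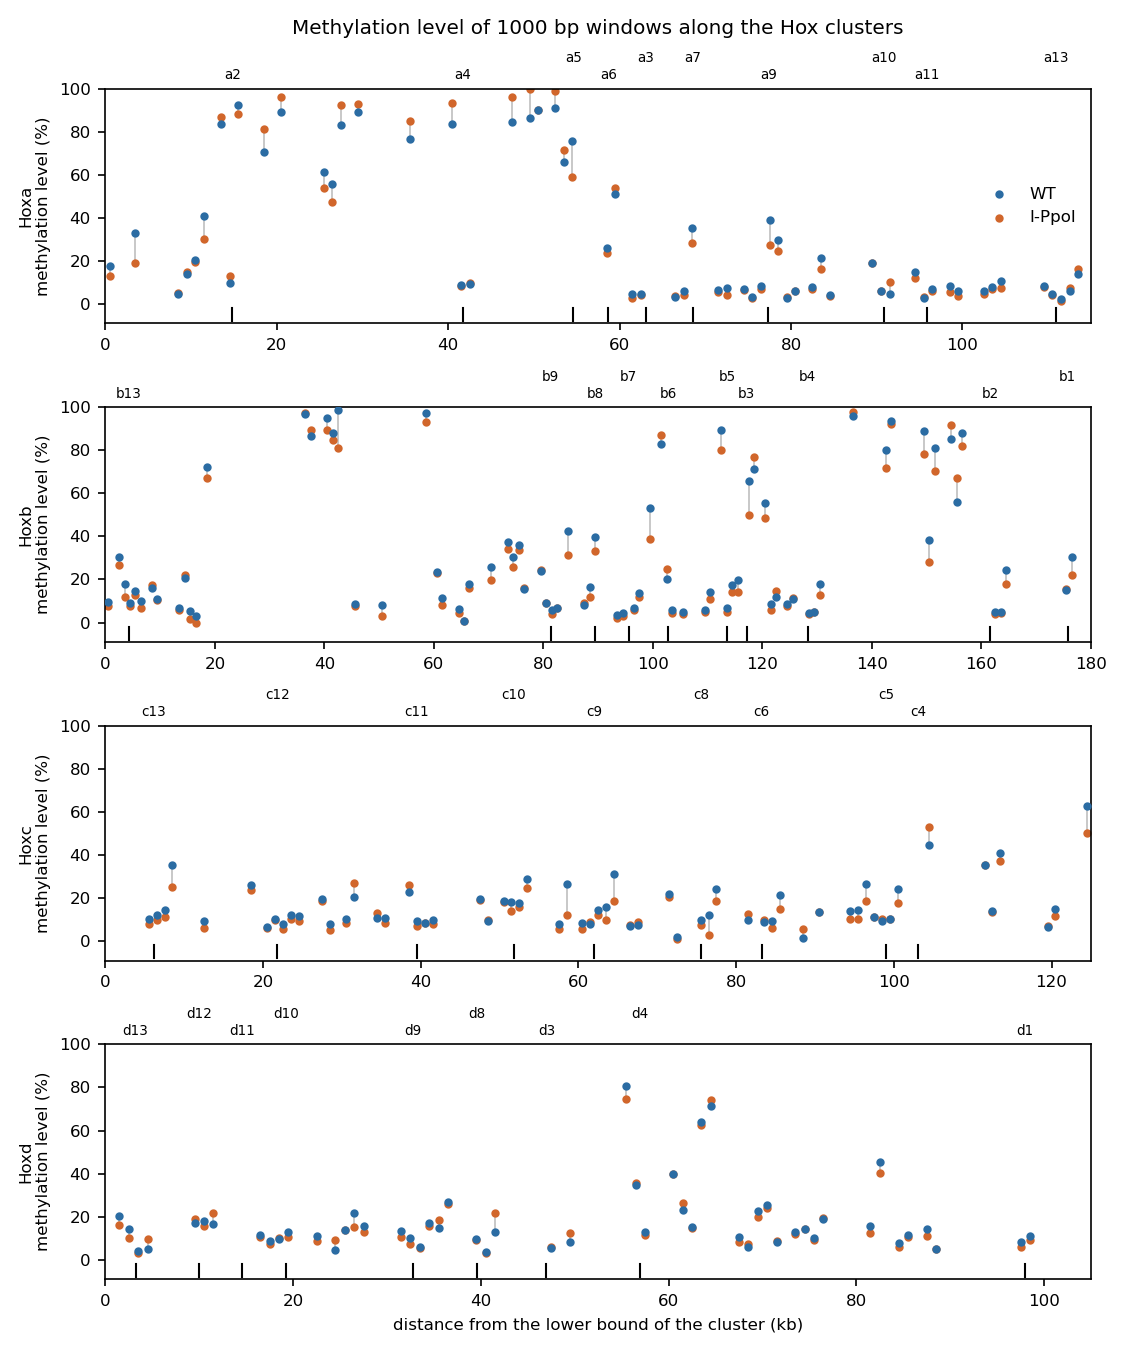
Methylation level (%) of 1000 bp windows in WT and I-PpoI against distance (kb) from the lower bound of each cluster, with member 5′ ends as ticks and the genes named above. Windows over 50% gather on the Hoxa2 to Hoxa6 side of Hoxa, where 17 were found with 4 lower ones among them, while Hoxc has 1 and Hoxd 3.

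To set the members beside each other without overlap, each cytosine was given to the member with the nearest 5′ end. The gene table places 5′ ends at the outermost start of a gene, and the spans of Hoxa3 and Hoxb3 run across several neighbours. Hoxa5, which acts in lung and in blood cell differentiation, had the highest mean, 76.6% in WT and 70.7% in I-PpoI over 119 cytosines. Next came Hoxa2, a regulator of the hindbrain and neural crest, with 42.4% and 41.4%, and Hoxb3 with 42.3% and 39.8%. Hoxa3, needed for the thymus and parathyroid, had the lowest, 6.04% and 4.85%. That section lies around its outermost start and leaves out most of its span. Farther than 1000 bp inside both ends of the Hoxa3 span, pooled reads gave 37.1% and 33.1% on 683 cytosines. Part of that span falls in the Hoxa2 section. Within 1000 bp of the Hoxa2 5′ end pooled reads gave 14.1% and 15.6%. The sections of Hoxc, whose genes pattern the trunk and limbs, ran from 11.7% to 18.7% in WT, and those of Hoxd from 8.01% to 19.5%.

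Of the 38 sections, 34 were lower in I-PpoI and 4 higher, and the counting interval lay below 0 in 28 and above 0 in 1. The 1 above 0 was Hoxa4, 28.4% against 30.2% in I-PpoI, 1.83 points higher (1.12 to 2.54). On like-strand cytosines 35 were lower and 3 higher, and Hoxa4 was again the 1 whose interval lay above 0, at 1.19 (0.504 to 1.87). The largest difference there was that of Hoxb1, 24.5% in WT and 18.2% in I-PpoI. On these cytosines 8 sections were over 20% in WT, 4 in Hoxa and 4 in Hoxb, and 16 were under 10%. A majority lower in I-PpoI was also the general state of the data. By pooled reads within 1000 bp of a gene end, 30 of 36 measured members were lower, as were 17077 of all 22553 genes.

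**Figure D3:**
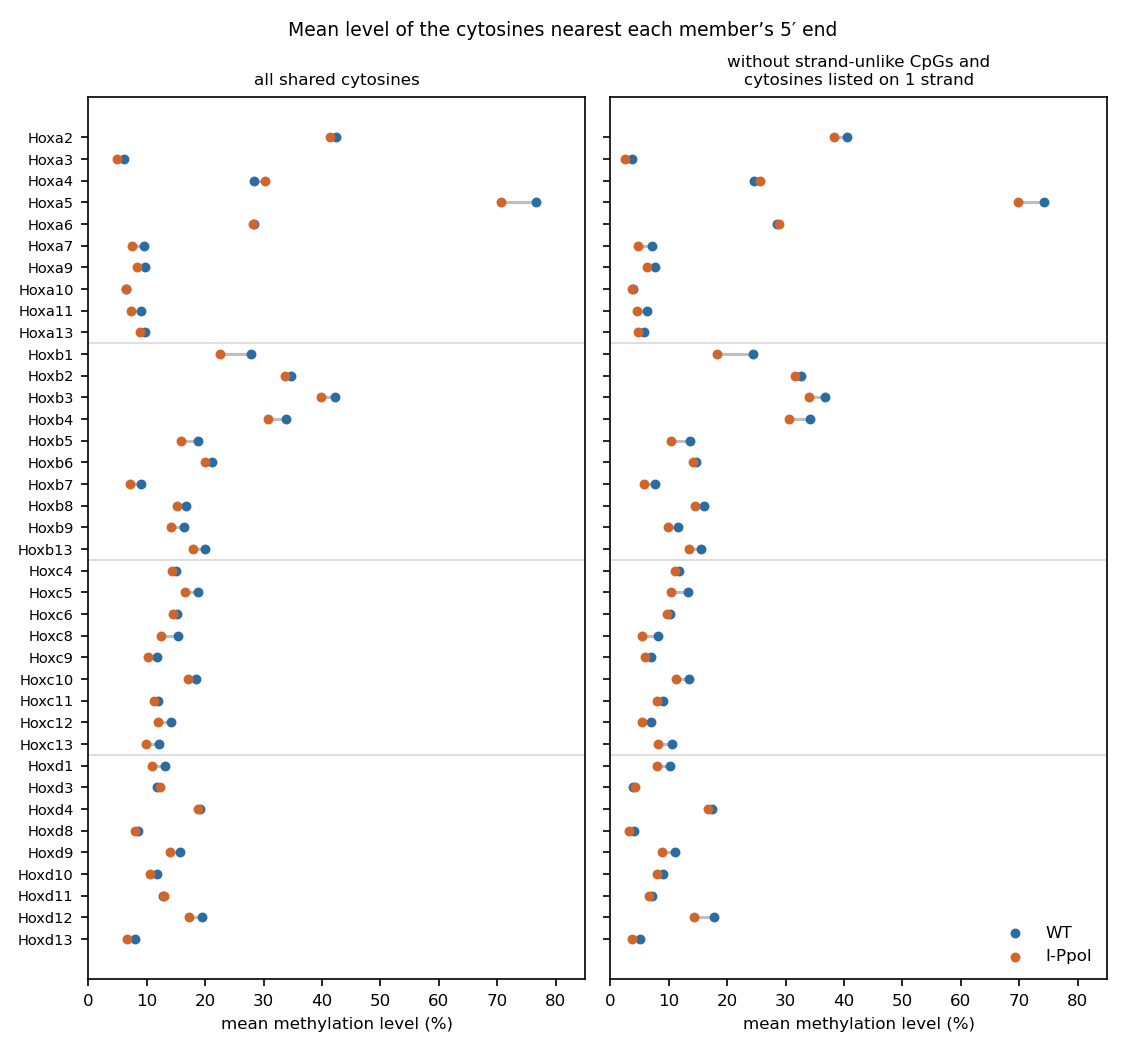
Mean methylation level (%) in WT and I-PpoI of the cytosines nearest the 5′ end of each of the 38 members, over all shared cytosines (left) and over like-strand cytosines (right). Hoxa5 stands at 76.6% in WT on the left and 74.2% on the right, and the Hoxc and Hoxd sections move to lower levels on the right.

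Within 1000 bp of a gene end, the part of a gene where RRBS reads most, 36 of 38 members had at least 3 cytosines; Hoxc4 and Hoxd11 did not. The end is the 5′ end by the direction of the cluster for all but Hoxb2, whose other end held more cytosines. It is the outermost start of the gene, and the listed promoters of Hoxb8 and Hoxd10 lie more than 1000 bp from it. A gene end was called at an adjusted p under 0.01 in a two-sided Fisher's exact test over all genes and a difference of at least 10 points. Of the members 1 was lower and 0 higher, against 2.83% lower and 0.333% higher of all 22553 gene ends, so the share of the members was near the background. By the mean of cytosines weighted equally 0 were lower, against 2.24% of all. The median difference was -1.24 points over the members and -0.681 over all genes, and the median level in WT 9.49% and 6.84%.

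The end called lower was that of Hoxa7, a gene of the trunk, with 26.4% (23.2 to 29.9, Wilson 95% interval) in WT against 15.1% (12.5 to 18) in I-PpoI, which is -11.4 points (-15.7 to -7.02, adjusted p = 3.7e-06, Fisher's exact test). Its 31 cytosines held 655 and 671 reads, and 17 were lower and 8 higher. Weighted equally they differed by -3.90 points. When both libraries were thinned to equal coverage at each cytosine it was -2.78 (adjusted p = 0.46, Fisher's exact test). On like-strand cytosines 2 member ends were called lower, Hoxa7 with -14.7 points and Hoxa5 with -12.3, against 2.25% of all ends. Between the end regions of Hoxa7, 113 cytosines had 5.37% in WT and 3.89% in I-PpoI.

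The members with methylated ends came mostly from Hoxa and Hoxb. Hoxa5 had 72.9% in WT and 63.3% in I-PpoI, and Hoxb3, which acts in the hindbrain and in blood stem cells, 57.2% and 47.5% on 7 cytosines, with intervals that overlapped. Hoxa9, a main Hox gene of blood stem and progenitor cells, had 47.1% and 42.3% on 9 cytosines, again with overlapping intervals. The rest of Hoxa9, between its end regions, was weakly methylated, with 5.83% in WT and 5.18% in I-PpoI on 158 cytosines. Hoxb8, used in myeloid progenitors, had 37.4% and 32.0%, and Hoxd4 29.0% and 29.6%. The Hoxb8 values are those around its outermost start, chr11:96279401. Its listed promoter, chr11:96281655-96281954, lies outside that region. Between the end regions of Hoxb8, 71 cytosines had 3.45% in WT and 2.07% in I-PpoI. In Hoxc the highest were Hoxc10, with 17.9% and 15%, and Hoxc13, a gene of hair and nail, with 11.8% and 9.56%. In Hoxd the second was Hoxd12, a limb gene, with 18.0% and 16.0%.

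At the other end of the range, 21 of the 36 measured members were under 10% in WT, as were 59.9% of all gene ends. The lowest of each cluster were Hoxa3 with 2.75% in WT and 2.81% in I-PpoI, Hoxb4, a blood stem cell gene, with 4.73% and 4.16%, Hoxc9 with 9.25% and 8.90%, and Hoxd13, the gene of the digits, with 4.77% and 3.52%. Among weakly methylated ends the largest differences were -2.47 at Hoxc8, from 9.86% to 7.39% (adjusted p = 2.5e-06), and -2.0 at Hoxd1, from 9.86% to 7.87% (adjusted p = 4.2e-09), both by Fisher's exact test and both short of the 10 points. By paralogue number, the median level in WT was 9.86% for numbers 1 to 3, 9.63% for 4 to 8 and 9.25% for 9 to 13, so no order along the clusters was seen in these medians.

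**Figure D4:**
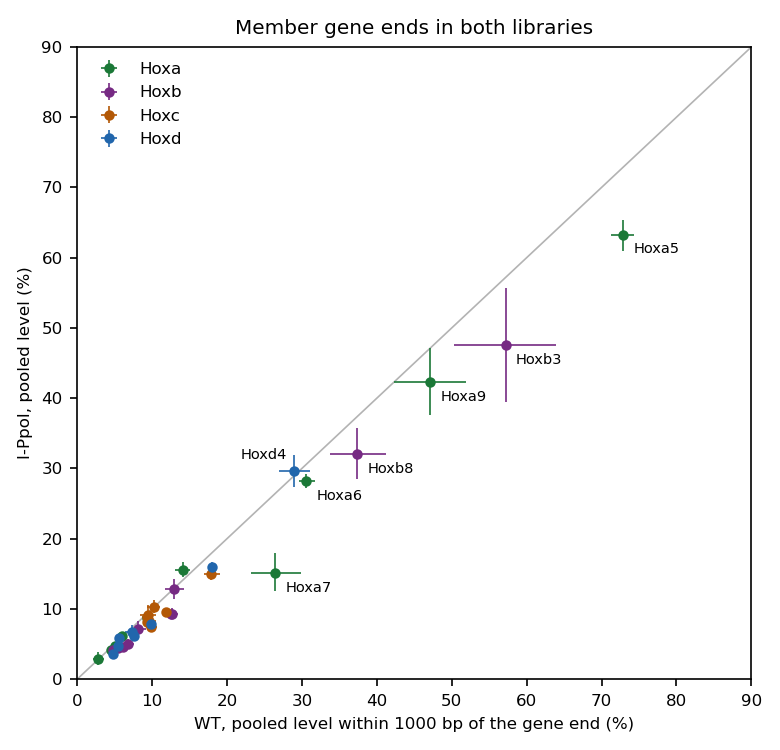
Pooled methylation level (%) within 1000 bp of the gene end in WT (x axis) and I-PpoI (y axis) for the 36 measured members, with Wilson 95% intervals of the read counts and the line of equality. Most members lie under 20% near the line, and Hoxa7 lies farthest below it, at 26.4% and 15.1%.

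Hoxa5 showed how far a regional difference could depend on which reads were counted. The window chr6:52204001-52205000, which covers its 5′ end, had the most negative difference of Hoxa, with 75.9% in WT against 59.2% in I-PpoI (-16.7 points, -20.0 to -13.4, adjusted p = 1.3e-21, Fisher's exact test over all windows), short of the 25 points set for windows. It held 62 cytosines with 2204 and 1230 reads. From 250 to 500 bp into the gene the mean was 77.8% against 65.4% in I-PpoI, and from 500 to 750 bp 69.8% against 56.8%. In the 250 bp before the start it was 59.6% and 59.2%.

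The strands of Hoxa5 did not move together. Of 29 CpGs listed on both strands within 1000 bp of its 5′ end, 11 were lower on both strands, 3 higher on both and 14 lower on one and higher on the other. Differences of both signs thus lay side by side. At the CpG at chr6 position 52203969 the forward strand went from 76.0% (25 reads) to 42.9% (21 reads), and the reverse from 79.5% (39 reads) to 100% (11 reads). Neighbouring cytosines can lie on the same reads. With a coverage minimum of 20 reads the difference at the gene end was -3.70 (adjusted p = 0.08, Fisher's exact test), and with 30 reads, where fewer cytosines enter, it was 13.5 the other way (adjusted p = 6.9e-07).

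**Figure D5:**
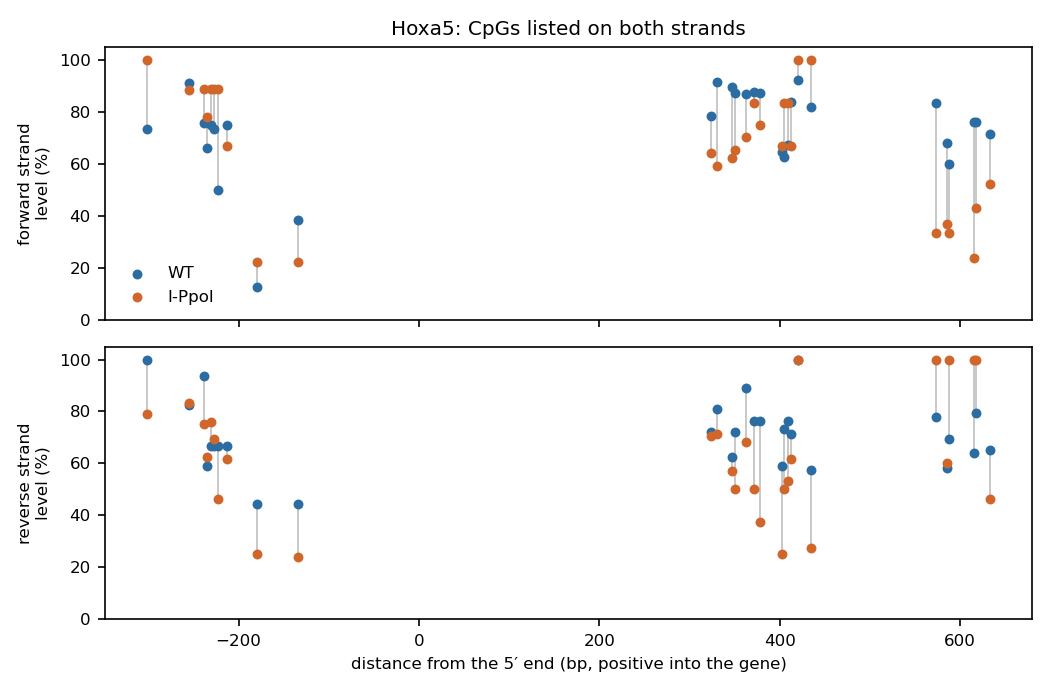
Methylation level (%) of CpGs listed on both strands within 1000 bp of the Hoxa5 5′ end, on the forward strand (top) and reverse strand (bottom), in WT and I-PpoI, against distance (bp). At the CpG 618 bp into the gene I-PpoI is below WT on the forward strand, at 42.9%, and above it on the reverse, at 100%.

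Over the windows, 0 of 251 were called at 25 points, against 1.08% of all 165854 windows (1.35% of those at 25% or more in WT, where 0 of 71 Hox windows were called). On like-strand cytosines 0 of 211 were called, against 0.623%, and the Cochran-Mantel-Haenszel test scaled by the spread between cytosines also called 0. At an unadjusted p under 0.05 there were 120, against 34.8% of all windows. Without a minimum difference, 62 of 251 had an adjusted p under 0.01, 52 lower and 10 higher, against 15.6% of all windows. A difference of at least 10 points was reached by 4 lower and 3 higher windows at that adjusted p, against 5.88% and 0.643% of all windows. Hox windows held a median of 23 cytosines against 8 in all windows, and their median difference was -1.27 points against -1.23. Windows with more reads reach a low p at smaller differences. The part of this in the shares without a minimum difference was not tested.

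Of the 10 windows higher at an adjusted p under 0.01, 7 were in Hoxa, 2 in Hoxb and 1 in Hoxd. Of all 165854 windows 2911 were higher and 22967 lower at that adjusted p. Of the 17 Hoxa windows over 50% in WT, 12 were higher in I-PpoI, whereas of all 121901 windows over 50% in the data 42312 were higher and 79134 lower. The window chr6:52190001-52191000, inside Hoxa4 and chosen after its values were seen, had 83.8% in WT against 93.3% in I-PpoI. Of its 34 cytosines 29 were higher (9.48 points, 7.51 to 11.5, adjusted p = 2.5e-18, Fisher's exact test). The window that holds the Hoxa4 5′ end, chr6:52191001-52192000, had 8.93% against 8.26% on 164 cytosines. The window chr6:52197001-52198000, inside the Hoxa3 span, had the most positive difference among windows with at least 5 cytosines and 100 reads, 84.6% against 96.2% on 12 cytosines (11.6 points, 6.52 to 16, adjusted p = 2.7e-04, Fisher's exact test). The most methylated of these, chr6:52200001-52201000, had 89.9% in both, and the next, chr6:52170001-52171000, 89.3% against 96.2%. On like-strand cytosines all 6 Hoxa windows over 80% were higher, by 3.63 to 11 points. The 10 Hoxa windows over 80% held 8551 reads in WT against 5797 in I-PpoI. The part of depth in these differences was not tested.

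In Hoxb the picture was mixed, with 7 of 21 windows over 50% higher and 14 lower. Inside the Hoxb3 span, chr11:96345001-96346000 had 55.8% against 67.1% (11.4 points, 8.87 to 13.8, adjusted p = 5.6e-17, Fisher's exact test). In the same span chr11:96332001-96333000, chosen after its values were seen, had 80.3% against 71.6%. With cytosines weighted equally these differed by 4.08 and -11.7. Among Hoxb windows with at least 5 cytosines and 100 reads in each library, the most negative difference was at chr11:96289001-96290000, inside Hoxb7, 53.2% against 38.9% on 5 cytosines (adjusted p = 0.015, Fisher's exact test). The most methylated of these, chr11:96248001-96249000 between Hoxb13 and Hoxb9 and chr11:96326001-96327000 in the Hoxb3 span, had 97.1% against 93% and 95.9% against 97.9%.

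The same minimum of 5 cytosines and 100 reads holds for the Hoxc and Hoxd windows ranked here, and smaller windows with larger values were left out. In Hoxc the most negative difference was inside Hoxc8, past its 5′ end, at chr15:102991001-102992000, 12.1% against 2.92% (adjusted p = 4.2e-05, Fisher's exact test over all windows). That window held 769 reads in WT and 274 in I-PpoI. In Hoxd the most negative difference was at chr2:74691001-74692000, which holds the Hoxd10 promoter shown above. That window had 21.5% against 15.4% on 73 cytosines, 48 lower and 22 higher (adjusted p = 6.0e-17, the same exact test). The most methylated of the Hoxc windows that met the minimum, both inside Hoxc4, had 40.7% against 37.1% and 35.3% in each library. The most positive difference among the Hoxc windows that met it was 23% against 26.1%, before the Hoxc11 5′ end. The most positive of Hoxd was 12.8% against 21.7%, inside Hoxd8. The most methylated Hoxd windows that met the minimum were inside Hoxd3 and Hoxd4, with 71.2% against 74.4% at chr2:74729001-74730000 and 64.1% against 62.7% at chr2:74728001-74729000. The window chr2:74720001-74721000, before the Hoxd4 5′ end, had 80.7% against 74.6% on 4 cytosines.

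Gene bodies, the stretch between the end regions, were measured in 31 members. Hoxb1, which acts in the hindbrain, was the 1 called lower, and 0 were called higher, against 8.88% lower and 0.396% higher of all 19692 bodies. Its 24 cytosines had 35.9% in WT against 25.7% in I-PpoI, 19 being lower (-10.2 points, -12.8 to -7.69, adjusted p = 4.7e-14, Fisher's exact test). The scaled test, which is not an exact one, also called it (adjusted p = 7.2e-05). On its like-strand cytosines the difference was -10.9. Weighted equally it was -9.44, under the 10 points, and 0 member bodies were then called, against 3.89% of all. On the forward strand alone it was -4.25 and on the reverse -15.4.

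Of single cytosines, 16 of 9279 were called lower and 5 higher at 25 points, against 0.429% and 0.0561% of all cytosines. The largest differences were at 2 nearby cytosines at the Hoxa5 5′ end on the reverse strand, 82.6% against 12.5% and 81.8% against 12.5%, both on 16 reads in I-PpoI. At chr2 position 74691560 by Hoxd10 the forward strand went from 30.0% (120 reads) to 1.45% (138 reads, adjusted p = 7.9e-08, Fisher's exact test), and the reverse from 19.3% to 9.30%. In the Hoxa3 span, chr6 position 52175549 went from 70.5% to 18.3% on the forward strand and from 21.9% to 8.45% on the reverse. The largest rise was at chr2 position 74727789 in Hoxd4, from 17.0% to 53.3% on the forward strand, where the reverse went from 51.4% to 33.3%.

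Noncoding genes that lie within the clusters had both high and low ends. Of 16, 13 had a measured end, and 0 were called lower and 1 higher, against 2.83% and 0.333% of all gene ends. The 1 was Hoxaas2, an antisense gene of Hoxa, with 68.7% in WT and 84.3% in I-PpoI on 13 cytosines (adjusted p = 0.0037, Fisher's exact test). The scaled test did not call it. Hoxaas3 had 90.9% and 90.3%. Hotair, transcribed from Hoxc and known to bind Polycomb proteins, had 8.66% and 5.51%, Hottip, beside Hoxa13, 12.2% and 12.7%, and Hotairm1, beside the anterior end of Hoxa, 5.83% and 6.45%.

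Homeobox genes elsewhere also had weakly methylated ends, as had genes of all kinds. Of 54 homeobox and ParaHox genes outside the clusters, 52 had measured ends, with a median of 8.01% in WT against 6.84% for all genes. Their median difference was -0.977 points against -0.681, and 0 were called, against 2.83% lower and 0.333% higher of all ends. Of 57 genes of the Polycomb and Trithorax complexes, the Hox cofactors and chromatin architecture, 52 ends were measured and 0 were called, and 4 of 50 bodies were called lower, a share near the 8.88% of all bodies. Among these were Mllt3, of the elongation machinery, from 43.2% to 31.1%, Mllt1, its relative, from 90.5% to 78.7%, and Pknox2, a Hox cofactor, from 40.0% to 30.0%. With cytosines weighted equally 0 of these 4 were called, against 3.89% of all bodies. Of 7 measured ends of leukocyte genes 6 were under 10% in WT, the exception being Spi1 at 97.7%, but so were 59.9% of all gene ends, so this is no check of the tissue. Among 8 leukocyte bodies there were 2 lower calls and 1 higher call, where the shares of all bodies were 8.88% and 0.396%. With cytosines weighted equally 0 of these lower calls remained, beside 3.89% of all bodies, and the scaled test kept 1. The higher call, Cd37, was kept by both. Whether the leukocyte shares differ from those of all bodies was not tested. Of 6 kidney tubule genes 2 ends were measured, at 5.04% and 88.6%, and of 3 liver genes 0.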

How the data were processed

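Per the labels' protocols, a Zymo-Seq kit was used to cut DNA with MspI and build each library. The submitters' processing notes name methylKit without a version; the aligner, build, trimming and removal of duplicates were not given in the sources used here. Each library's file has, per the file headers, 1 line a cytosine: the deposited count of reads over a cytosine and the deposited percent of C and of T among them. Percent times count was whole within 1e-06 at 100.0% of cytosines, which gave methylated read counts. WT listed 3569384 cytosines and I-PpoI 3141563, none under 10 reads. Cytosines over the 99.9th percentile of coverage (284 and 252 reads) were left out. Of the cytosines inside RefSeq GRCm38.p6 promoters 99.9% lay on a CpG of that sequence, which was taken as the check of the build.

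Cluster and section levels are means over cytosines; windows, gene ends and bodies pool reads. Fisher's exact test, two-sided and adjusted by Benjamini and Hochberg, ran over all windows, genes or cytosines of the data (Python 3.11.15, scipy 1.17.1, numba 0.67.0). Window calls alone were tried on simulated data, on the chromosomes of the clusters. The simulated reads were drawn for each cytosine independently, unlike real reads that cover several. Intervals are Wilson and Newcombe, at 95%. Calls needed an adjusted p under 0.01 and 25 points (windows, cytosines) or 10 points (genes). The strand of a gene came from the promoter table where given; otherwise the end with more cytosines was used. Named genes were those called and, in each cluster, the 2 highest, the lowest and the 2 with the largest differences at gene ends with at least 5 cytosines and 100 reads; windows, cytosines and list genes followed like rules. Members and lists were chosen with earlier results of these data known. Alternatives changed coverage, strand, depth, weights, thresholds, test and region size. The values of 1 called list gene are not reported here.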

Additional observations from a re-analysis of the deposited data

How the results depend on the processing

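The lower mean of I-PpoI in each cluster kept its sign in every alternative run. Its size over all 4 clusters was -1.38 at a minimum of 30 reads, -1.67 on the forward strand, -1.33 on the reverse, -2.13 with pooled reads and -1.62 on like-strand cytosines, against -1.50. In Hoxb it was -1.81 and -1.58 at 20 and 30 reads, -2.56 and -1.66 on the forward and reverse strands and -2.75 pooled. In Hoxa it was -2.24 pooled, and in Hoxd -1.53 on the forward strand and -1.73 pooled. The WT mean was 15.6% and 13.9% at 20 and 30 reads, 17.6% and 17.4% on the forward and reverse strands, 13.9% pooled and 13.9% on like-strand cytosines, against 17.5%. The gap between clusters and flanks in WT, -7.62 points, was -3.68 with flanks of 50 kb, -9.72 with 200 kb and -8.39 on like-strand cytosines.

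The 1 gene end called lower became 0 at 20 reads, at 30 reads, with thinned reads, with equal weights, with the scaled test and with 2000 bp either side, and 2 at 5 points and on like-strand cytosines (Hoxa5 and Hoxa7, against 2.25% of all ends). At 30 reads 1 was higher, Hoxa5; fewer cytosines enter there. The 1 body called became 0 on the forward strand and with equal weights, and 3 at 5 points. On the forward strand 1 window was lower and on the reverse 1 was higher; at 10 points there were 4 lower and 3 higher. Cytosines called lower were 7 on the forward strand, 9 on the reverse, 4 thinned and 67 at 10 points, and higher 1 on the reverse, 3 thinned and 11 at 10 points. The 4 called bodies of regulators and cofactors became 0 with equal weights. Where no construction explains a change, the cause was not tested. No paired analysis was possible because each group has 1 library.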

Other observations

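Coverage differed between the libraries inside the clusters. WT alone listed 648 Hox cytosines and I-PpoI alone 289, beside the 9283 in both. The strand differences at single CpGs of the clusters correlated between WT and I-PpoI with r = 0.913 over 4060 CpGs, which share the genome sequence and the library method. The SD of the difference between strands was 27.5 points in WT and 28.1 in I-PpoI, against 8.66 on the forward and 8.22 on the reverse strand for the difference between libraries, and without the strand-unlike CpGs it was 10.9 and 11.1. Windows of 3 to 5 cytosines had a median of 35.4% in WT in the clusters and those of over 50 cytosines 8.35%, against 91.1% and 4.73% for all windows.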
